A study of Mus musculus with 10 samples.

Results

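Cxcl1, Cxcl2 and Cxcl3 are the neutrophil chemokines described here, taken by symbol as 3 of the 11617 genes listed in a table of mRNA levels from mouse macrophages. All 3 genes passed the filter on low levels, a mean of 1 CPM (counts per 1000000 scaled reads) or more, and were among the 11407 genes tested. Bone-marrow-derived macrophages of C57BL/6 mice were treated with either of 2 ligands, AmTARS and Pam3CSK4, for 1 h or 3 h, or were left as Control, and their poly-A RNA was sequenced. AmTARS stands, going by its name, for an Akkermansia muciniphila enzyme that charges tRNA with threonine, and Pam3CSK4 is a synthetic lipopeptide that activates Toll-like receptor TLR2 together with TLR1. The 5 groups were AmTARS for 1 h, AmTARS for 3 h, Pam3CSK4 for 1 h, Pam3CSK4 for 3 h and Control, with 2 libraries each. Their replicate numbers run from 1 to 3, with number 1 or 2 absent in each group. AmTARS was used at 0.5, in a unit that the labels write as mm, and Pam3CSK4 at 10 ng/ml, so the ligands are compared at 1 dose each and not at matched doses. All cells shared the same culture, in medium with GM-CSF at 50 ng/ml and serum at 10%; GM-CSF is a myeloid growth factor that also drives dendritic cell differentiation. The age of the mice is given as 6 weeks in one label and 7 weeks in another. Control libraries carry no time, so the 1 h and the 3 h groups were set against the same 2 libraries. No label says whether replicates are separate animals or cultures, so the p-values measure the spread between these libraries, which may be technical.

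These chemokines carry a glutamate-leucine-arginine (ELR) motif before their CXC cysteines and attract neutrophils through the receptor CXCR2. Cxcl1 is also known as KC and Cxcl2 as MIP-2, and both are classical early products of macrophages that sense bacterial ligands. TLR2 signals through the adaptor MyD88 to NF-kB, a transcription factor that binds the promoters of such genes. Their mRNAs carry AU-rich elements in the 3' untranslated region, which mark an mRNA for rapid decay.

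The 3 genes lie on the plus strand of chromosome 5 in 1 chemokine cluster (mouse build mm10, GENCODE M21). Cxcl3 (ENSMUSG00000029379.10) spans chr5:90786103-90789600, Cxcl1 (ENSMUSG00000029380.11) spans chr5:90891241-90893115 and Cxcl2 (ENSMUSG00000058427.10) spans chr5:90903871-90905938. Each has 4 exons in its principal transcript, and no other annotated gene overlaps any of them. Cxcl5, Ppbp and Pf4, further chemokine genes, lie on the other side of Cxcl3, with Cxcl5 starting at 90759360. The promoters are shown because the genes moved together against Control but differed in timing. These are the 300 bases around each RefSeq start, most of them upstream (build GRCm38.p6, plus strand, chr5:90890995-90891294 for Cxcl1, chr5:90903649-90903948 for Cxcl2 and chr5:90785851-90786150 for Cxcl3). Capitals mark overlapping matches to the NF-kB consensus on the plus and minus strands and, in Cxcl3, the letters TATAAA.
Cxcl1: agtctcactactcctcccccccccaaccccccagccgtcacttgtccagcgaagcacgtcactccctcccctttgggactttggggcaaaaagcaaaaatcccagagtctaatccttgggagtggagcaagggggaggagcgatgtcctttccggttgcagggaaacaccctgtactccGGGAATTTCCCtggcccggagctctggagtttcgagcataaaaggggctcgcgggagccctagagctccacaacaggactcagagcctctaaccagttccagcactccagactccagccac
Cxcl2: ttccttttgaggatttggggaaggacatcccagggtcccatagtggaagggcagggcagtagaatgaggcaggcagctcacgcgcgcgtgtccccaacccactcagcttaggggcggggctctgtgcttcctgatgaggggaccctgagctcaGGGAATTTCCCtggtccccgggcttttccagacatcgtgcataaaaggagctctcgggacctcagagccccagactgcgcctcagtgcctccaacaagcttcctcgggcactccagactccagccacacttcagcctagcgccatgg
Cxcl3: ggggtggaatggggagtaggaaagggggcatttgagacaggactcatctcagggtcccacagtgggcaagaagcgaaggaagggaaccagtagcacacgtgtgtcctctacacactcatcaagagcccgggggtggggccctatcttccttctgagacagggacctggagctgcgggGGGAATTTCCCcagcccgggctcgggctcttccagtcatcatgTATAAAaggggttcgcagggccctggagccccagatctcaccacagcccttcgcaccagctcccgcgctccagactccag

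Each promoter held the same 11 letters of the NF-kB match, which counts on both strands with an offset of 1 base. Counting the RefSeq start as 0, its first base stood at -71 in Cxcl1, at -97 in Cxcl2 and at -73 in Cxcl3. Relative to the GENCODE start, these positions were -67, -69 and -75, because RefSeq places the Cxcl2 start 28 bases further downstream. Of 27025 mouse promoters of the same length, 8.18% held a match to the NF-kB consensus on either strand. TATAAA, the core of a TATA box, was found in Cxcl3 alone among the 3, beginning at -30, and in 14.2% of all promoters. CATAAAAGG was found in Cxcl1 and Cxcl2 and TATAAAAGG in Cxcl3, letters chosen for description after the sequences were seen, and 1.07% of promoters held either form. TGANTCA, the site of the factor AP-1, was found in none of the 3 windows and in 7.93% of promoters. All motifs were searched on both strands. A match in letters is not a measurement of binding. The promoter windows were 76.3% identical between Cxcl1 and Cxcl2, 75.6% between Cxcl1 and Cxcl3, and 78.8% between Cxcl2 and Cxcl3.

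Reads in the listed genes numbered 27398791 to 37559810 per library, and replicate libraries correlated at 0.998 across genes in each group. The deposited values are log2 of CPM plus 1. They summed to 998260 to 1037796 CPM in treated libraries, against 959639 and 960837 CPM in Control, so the scaling is not to the plain read total. Shorter transcripts tended to be higher in every treated group against Control. The Spearman correlation of transcript length with the log2 fold change across 11369 genes, which are not independent replicates, was -0.73 for AmTARS at 1 h, -0.66 for AmTARS at 3 h, -0.73 for Pam3CSK4 at 1 h and -0.51 for Pam3CSK4 at 3 h. The correlation was weaker between treated groups, at 0.34 for AmTARS against Pam3CSK4 at 1 h and -0.0049 at 3 h. For 3 h against 1 h it was 0.21 with AmTARS, 0.26 with Pam3CSK4 and -0.17 for the AmTARS change minus that of Pam3CSK4. The members are short, with principal transcripts of 953 bases for Cxcl1, 1109 for Cxcl2 and 1016 for Cxcl3. Values after a length and GC correction are therefore given beside the changes against Control, but not beside the other comparisons. With the correction 8.15% of genes were called higher and 6.09% lower after AmTARS at 1 h, 10.8% and 7.78% after AmTARS at 3 h, 11.6% and 11.2% after Pam3CSK4 at 1 h, and 20.7% and 21.2% after Pam3CSK4 at 3 h. The macrophage markers Adgre1 (624 to 918 CPM) and Itgam (636 to 874 CPM) were found in all libraries. Of 7 lymphocyte markers none was listed, and of 8 dendritic cell markers only Itgax, H2-Ab1 and Ccr7 were.

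The libraries of Pam3CSK4 at 3 h stood apart from each other for these genes. Replicate 3 was above replicate 2 by 0.56 in Cxcl1, 0.55 in Cxcl2 and 0.57 in Cxcl3 on the log2 scale. In the other groups the gap between libraries was 0.01 to 0.18. The standard errors (SE) below use 1 spread per gene over all 5 groups and may be too small for Pam3CSK4 at 3 h. Values that rest on this group are therefore also given without replicate 3 for each test and share of the members, and against Control without either.

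Cxcl1 had 22.3 and 22.8 CPM after AmTARS at 1 h, 22.5 and 24.1 CPM after AmTARS at 3 h, 57.0 and 51.2 CPM after Pam3CSK4 at 1 h, 149 and 219 CPM after Pam3CSK4 at 3 h, and 12.6 and 12.0 CPM in Control. Both AmTARS groups lay together above Control, both Pam3CSK4 groups lay above both AmTARS groups, and the AmTARS libraries of 1 h and 3 h overlapped. Cxcl2 had 43.7 and 49.6 CPM after AmTARS at 1 h, 47.1 and 46.7 CPM after AmTARS at 3 h, 129 and 128 CPM after Pam3CSK4 at 1 h, 252 and 369 CPM after Pam3CSK4 at 3 h, and 16.7 and 18.8 CPM in Control. The order of groups was that of Cxcl1, again with overlap between the AmTARS times only. Cxcl3 had 33.3 and 30.6 CPM after AmTARS at 1 h, 45.3 and 42.9 CPM after AmTARS at 3 h, 35.7 and 34.7 CPM after Pam3CSK4 at 1 h, 219 and 326 CPM after Pam3CSK4 at 3 h, and 23.6 and 24.3 CPM in Control. Here no groups overlapped, but the order differed: the AmTARS 3 h libraries lay above those of Pam3CSK4 at 1 h. The smallest of these values rests on 430 reads, Cxcl1 in 1 Control library, and the largest on 13292 reads, Cxcl2 after Pam3CSK4 at 3 h. In bulk RNA, more cells that express a gene and more RNA per cell cannot be told apart.

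**Figure D1:**
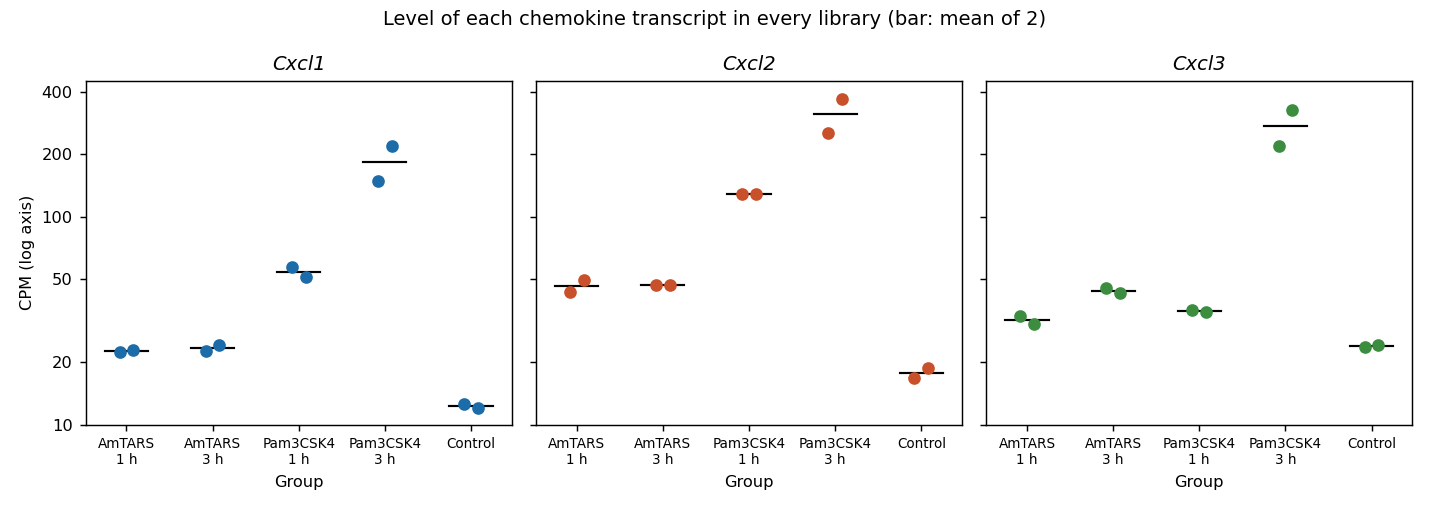
CPM of Cxcl1, Cxcl2 and Cxcl3 in each of 10 libraries on a logarithmic axis, by group, with points for libraries and a bar for the mean of 2. Cxcl1 and Cxcl2 are already high after Pam3CSK4 at 1 h (51.2 to 57.0 and 128 to 129 CPM), whereas Cxcl3 at 1 h (34.7 and 35.7 CPM) is far below its level at 3 h (219 and 326 CPM).

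Set per kilobase of transcript, the 3 genes can be compared with each other. In Control, Cxcl3 was the highest at 23.5 ± 0.506 CPM per kb, ahead of Cxcl2 at 16.0 ± 1.34 and Cxcl1 at 12.9 ± 0.417 CPM per kb (SD, n = 2). After Pam3CSK4 at 1 h, Cxcl2 led at 116 ± 0.599 CPM per kb, followed by Cxcl1 at 56.8 ± 4.31 and Cxcl3 at 34.7 ± 0.672 CPM per kb. Cxcl3 thus stood first in Control and last after 1 h of Pam3CSK4. After Pam3CSK4 at 3 h, Cxcl2 had 280.1 ± 74.2 CPM per kb, Cxcl3 268 ± 74.1 and Cxcl1 193 ± 52.3, and the libraries of Cxcl2 and Cxcl3 overlapped. After AmTARS at 1 h the levels were 42.0 ± 3.77 CPM per kb for Cxcl2, 31.5 ± 1.91 for Cxcl3 and 23.7 ± 0.413 for Cxcl1. After AmTARS at 3 h Cxcl3 had 43.4 ± 1.68 CPM per kb and Cxcl2 42.3 ± 0.272, within the spread of Cxcl3, and Cxcl1 had 24.4 ± 1.19. The sum of the 3 genes was 95.6 and 98.8 CPM per kb after AmTARS at 1 h, 111 and 109.6 after AmTARS at 3 h, 211 and 203 after Pam3CSK4 at 1 h, 599 and 883 after Pam3CSK4 at 3 h, and 51.4 and 53.5 in Control.

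All 3 chemokine mRNAs were higher after AmTARS at 1 h than in Control. Cxcl2, the highest of them at this time, reached 46.6 ± 4.18 CPM, against 17.8 ± 1.49 CPM in Control (SD, n = 2 each), a log2 fold change of 1.34 (SE 0.11, limma adjusted p = 1.51e-07). It had the second largest rise of all 11407 genes. Cxcl1 rose by 0.83 (SE 0.11, limma adjusted p = 1.86e-05), with a mean of 22.5 ± 0.393 CPM after AmTARS, against 12.3 ± 0.397 CPM in Control, and ranked 6. Cxcl3 rose less, by 0.40 (SE 0.11, limma adjusted p = 0.00586), to 32.0 ± 1.94 CPM after AmTARS, against 23.9 ± 0.514 CPM in Control, and ranked 275. Of all genes tested 18.9% were called higher and 19.8% lower, so a call alone sets no gene apart here, and the sizes carry more. The median absolute log2 fold change over all genes was 0.15. With the length and GC correction Cxcl2 rose by 1.16 and Cxcl1 by 0.62, both still called, while Cxcl3 changed by 0.20 and was no longer called (adjusted p = 0.153), and without AmTARS 1 h replicate 2 it changed by 0.34 (adjusted p = 0.0652).

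At 3 h of AmTARS all 3 were again higher than in Control. Cxcl2 reached 46.9 ± 0.301 CPM after AmTARS, against 17.8 ± 1.49 CPM in Control, and its log2 fold change of 1.36 (SE 0.11, limma adjusted p = 1.08e-07) was the largest rise of all genes. Cxcl1 rose by 0.87 (limma adjusted p = 1.56e-05), with 23.3 ± 1.13 CPM after AmTARS, against 12.3 ± 0.397 CPM in Control. Cxcl3 rose by 0.85 (limma adjusted p = 1.6e-05), with 44.1 ± 1.71 CPM after AmTARS, against 23.9 ± 0.514 CPM in Control. They ranked 9 for Cxcl1 and 12 for Cxcl3. At this time 18.8% of genes were called higher and 17.9% lower. Corrected for length and GC, the rises were 1.2 in Cxcl2, 0.69 in Cxcl1 and 0.68 in Cxcl3, all still called.

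Pam3CSK4 at 1 h split the genes. Cxcl2 had the largest rise of all genes, by 2.79 on the log2 scale (SE 0.11, limma adjusted p = 3.19e-13), a ratio of mean CPM of 7.24. Cxcl1 had the third largest, by 2.05 (limma adjusted p = 6.76e-11), a ratio of 4.41. Cxcl3 rose by 0.54 (limma adjusted p = 0.000373), a ratio of 1.47, and ranked 180. The background was 23.9% of genes called higher and 24.8% called lower. With the length and GC correction the rises were 2.57 in Cxcl2, 1.79 in Cxcl1 and 0.31 in Cxcl3, all still called (adjusted p = 0.0171 for Cxcl3). Together with a replicate block that of Cxcl3 was 0.26 and not called (adjusted p = 0.0872).

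At 3 h of Pam3CSK4 all 3 genes were among the 4 largest rises. Cxcl2 ranked first with a log2 fold change of 4.03 (SE 0.11, limma adjusted p = 3.87e-16), Cxcl1 second with 3.77 (adjusted p = 1.35e-15) and Cxcl3 at rank 4 with 3.43 (adjusted p = 2.81e-15). The ratios of mean CPM were 17.5 for Cxcl2, 15.0 for Cxcl1 and 11.4 for Cxcl3. Of all genes 24.7% were called higher and 24.2% lower. With the length and GC correction the rises were 3.82 in Cxcl2, 3.54 in Cxcl1 and 3.20 in Cxcl3. Without Pam3CSK4 3 h replicate 3 the changes were 3.76 in Cxcl2, 3.49 in Cxcl1 and 3.14 in Cxcl3. Without replicate 2 they were 4.30 in Cxcl2, 4.05 in Cxcl1 and 3.71 in Cxcl3.

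**Figure D2:**
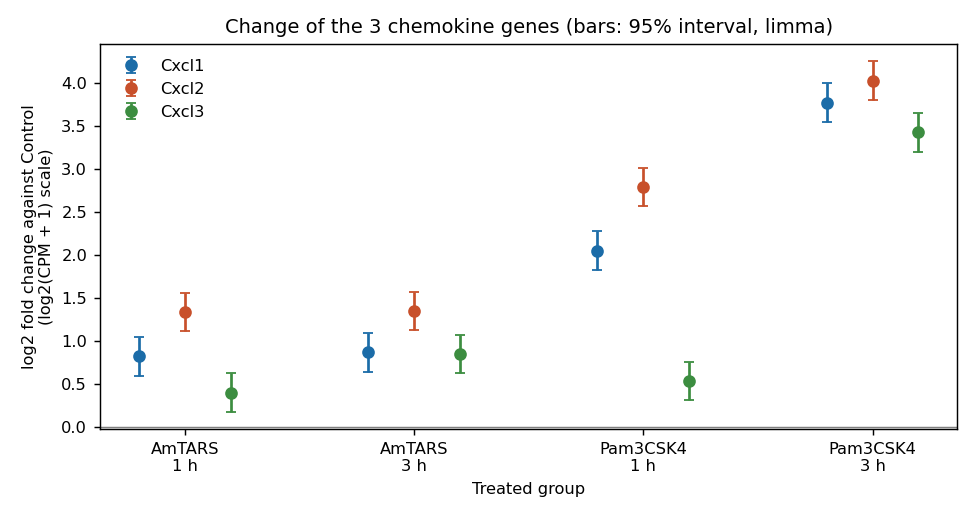
log2 fold change of Cxcl1, Cxcl2 and Cxcl3 against Control in 4 treated groups, with the 95% interval from limma. Cxcl3 lies below Cxcl1 and Cxcl2 in both 1 h groups (0.40 and 0.54), is near Cxcl1 after AmTARS at 3 h (0.85 and 0.87), and reaches 3.43 after Pam3CSK4 at 3 h.

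Set against each other at 1 h, AmTARS left Cxcl1 and Cxcl2 lower than Pam3CSK4 did. Cxcl2 averaged 46.6 ± 4.18 CPM after AmTARS and 129 ± 0.664 CPM after Pam3CSK4, a log2 difference of -1.45 (SE 0.11, limma adjusted p = 4.08e-08) that was the largest shortfall of all genes. Cxcl1 averaged 22.5 ± 0.393 CPM after AmTARS and 54.1 ± 4.11 CPM after Pam3CSK4, a log2 difference of -1.23 (limma adjusted p = 7.52e-07), at rank 4. Only 0.175% of genes, 20 of 11407, were called lower in this comparison. Cxcl3 averaged 32.0 ± 1.94 CPM after AmTARS and 35.2 ± 0.683 CPM after Pam3CSK4 and was not called. Its log2 difference of -0.14 had a 95% interval of -0.36 to 0.09 (limma adjusted p = 0.761), although the libraries did not overlap.

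At 3 h all 3 genes were lower after AmTARS than after Pam3CSK4, and they were the 3 largest shortfalls of all genes. Cxcl1 averaged 23.3 ± 1.13 CPM after AmTARS and 184 ± 49.9 CPM after Pam3CSK4, a log2 difference of -2.90 (SE 0.11, limma adjusted p = 3.22e-13). Cxcl2 averaged 46.9 ± 0.301 CPM after AmTARS and 311 ± 82.3 CPM after Pam3CSK4, a difference of -2.68 (limma adjusted p = 7.11e-13). Cxcl3 averaged 44.1 ± 1.71 CPM after AmTARS and 272 ± 75.3 CPM after Pam3CSK4, a difference of -2.57 (limma adjusted p = 9.6e-13). The share of genes called lower was 9.08%. Without Pam3CSK4 3 h replicate 3 the differences were -2.62 in Cxcl1, -2.40 in Cxcl2 and -2.29 in Cxcl3.

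Between 1 h and 3 h of AmTARS, neither Cxcl1 nor Cxcl2 was called changed. The log2 difference, 3 h minus 1 h, was 0.04 in Cxcl1 (95% interval -0.18 to 0.27, limma adjusted p = 0.936) and 0.01 in Cxcl2 (-0.21 to 0.23, limma adjusted p = 0.985). Cxcl3 rose by 0.45 at 3 h (SE 0.11, limma adjusted p = 0.023), with 44.1 ± 1.71 CPM at 3 h, against 32.0 ± 1.94 CPM at 1 h. It was among the 1.81% of genes called higher, at rank 52. The call did not survive leaving out any 1 of the 4 AmTARS libraries, when the rise was 0.39 to 0.51 with adjusted p of 0.102 to 0.216.

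Between 1 h and 3 h of Pam3CSK4 all 3 genes rose, and Cxcl3 rose most. Its mean was 272 ± 75.3 CPM at 3 h, against 35.2 ± 0.683 CPM at 1 h, a ratio of 7.73 and a log2 difference of 2.89 (SE 0.11, limma adjusted p = 1.66e-13). No other of the 11407 genes rose as far. Cxcl1 rose by 1.72 (limma adjusted p = 1.36e-10, rank 24) and Cxcl2 by 1.24 (limma adjusted p = 1.43e-08, rank 74), where 16.2% of genes were called higher. Without Pam3CSK4 3 h replicate 3 the rises were 2.60 in Cxcl3, 1.44 in Cxcl1 and 0.97 in Cxcl2. The log2 change from Control at 1 h was 15.7% of that at 3 h for Cxcl3, 54.4% for Cxcl1 and 69.2% for Cxcl2. Without replicate 3 these shares were 17.2% for Cxcl3, 58.7% for Cxcl1 and 74.2% for Cxcl2. No share was corrected for length and GC. With that correction the Cxcl3 changes from Control were 0.31 at 1 h and 3.20 at 3 h.

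The change over time differed between the ligands in all 3 genes. The interaction, the AmTARS change from 1 h to 3 h minus that of Pam3CSK4, was -2.44 in Cxcl3 (SE 0.15, limma adjusted p = 4.52e-09), the most negative of all genes. It was -1.68 in Cxcl1 (SE 0.15, limma adjusted p = 2.63e-07, rank 10) and -1.23 in Cxcl2 (SE 0.15, limma adjusted p = 1.02e-05, rank 30). In 5.71% of genes it was called negative. Without Pam3CSK4 3 h replicate 3 it was -2.15 in Cxcl3, -1.40 in Cxcl1 and -0.96 in Cxcl2. The AmTARS log2 change from Control was 74.6% of the Pam3CSK4 change at 1 h and 24.9% at 3 h in Cxcl3. These shares were 40.3% and 23.1% in Cxcl1, and 48.2% and 33.6% in Cxcl2. Without Pam3CSK4 3 h replicate 3 the share at 3 h was 27.2% in Cxcl3, 24.9% in Cxcl1 and 36.1% in Cxcl2. These shares were not corrected for length and GC either. With that correction the Cxcl3 changes at 1 h were 0.20 after AmTARS, not called, and 0.31 after Pam3CSK4.

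Ratios between the genes within a library do not depend on its scaling. The log2 ratio of Cxcl2 to Cxcl3, per kilobase, was 0.26 and 0.57 after AmTARS at 1 h, -0.07 and -0.0021 after AmTARS at 3 h, 1.73 and 1.76 after Pam3CSK4 at 1 h, 0.08 and 0.05 after Pam3CSK4 at 3 h, and -0.62 and -0.49 in Control. Both ligands had the ratio higher at 1 h than at 3 h, with the Pam3CSK4 1 h libraries far above the rest. The ratio of Cxcl1 to Cxcl3 was -0.49 and -0.33 after AmTARS at 1 h, -0.92 and -0.74 after AmTARS at 3 h, 0.77 and 0.65 after Pam3CSK4 at 1 h, -0.47 and -0.48 after Pam3CSK4 at 3 h, and -0.81 and -0.92 in Control. It was above 0 after Pam3CSK4 at 1 h alone. Cxcl2 exceeded Cxcl1 per kilobase in every library, with a log2 ratio of 0.74 to 0.90 over the AmTARS libraries, 0.53 to 1.10 over the Pam3CSK4 libraries and 0.19 to 0.43 in Control. Cxcl3 made up 16.6% and 16.8% of the 3-gene sum after Pam3CSK4 at 1 h and 36.0% and 36.3% after Pam3CSK4 at 3 h, against 45.1% and 44.7% in Control. The libraries of Pam3CSK4 at 3 h, which differed in level, thus held the genes in nearly the same proportions. These ratios were not tested.

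**Figure D3:**
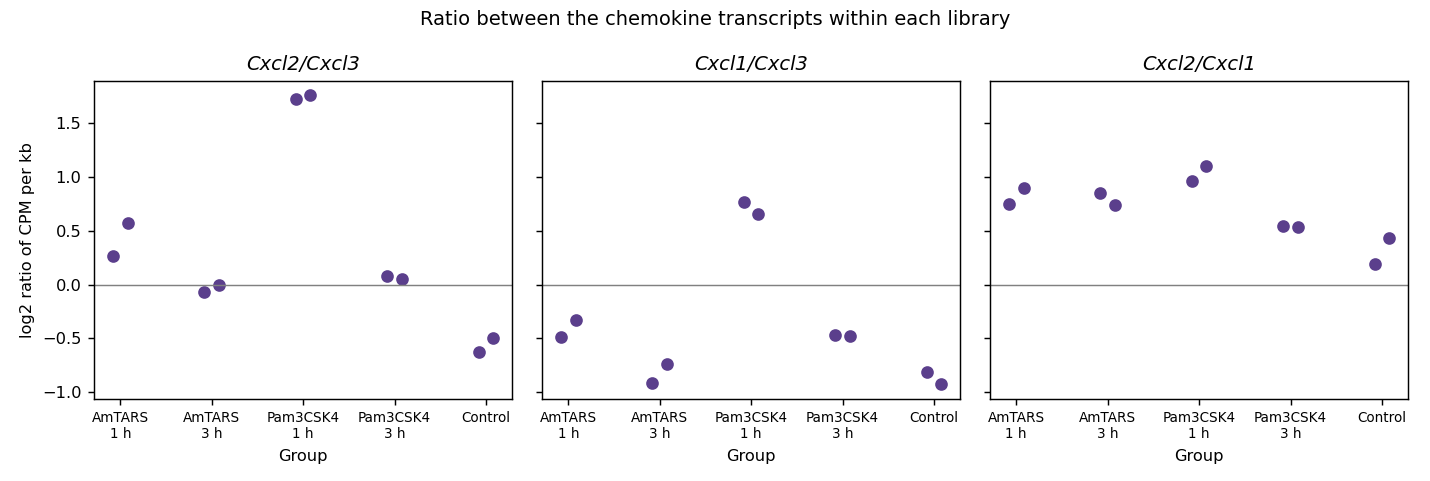
log2 ratio of CPM per kilobase between pairs of the genes in each of 10 libraries, by group, where each point is a library. The Pam3CSK4 1 h libraries stand at 1.73 and 1.76 for Cxcl2 to Cxcl3, the Pam3CSK4 3 h libraries at 0.08 and 0.05, and Control at -0.62 and -0.49.

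The genes whose levels followed each member most closely were ranked by Pearson correlation over the 10 libraries, among 9374 genes that averaged 5 CPM or more. The points share 5 groups, so these values describe the group pattern. Cxcl1 was followed by Tnfaip3 at 0.995, an inhibitor of NF-kB signalling, then by Ccrl2, Trim13, Nfkbiz and Ccl7 at 0.993 to 0.978. Cxcl2 was followed by Nfkbiz at 0.992, which encodes the nuclear NF-kB cofactor IkB-zeta, then by Ier3, Tmem38b, Nfkbia and Socs3 at 0.991 to 0.981. Cxcl3 was followed by Sdc4 at 0.997, a cell-surface proteoglycan, then by Adora2a, Hcar2, Slc2a6 and Tlr2 at 0.996 to 0.995. No gene was in the first 5 of Cxcl3 and in those of another member. Among the members, the correlation was 0.983 for Cxcl1 with Cxcl2, 0.907 for Cxcl1 with Cxcl3 and 0.837 for Cxcl2 with Cxcl3.

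Of the other ELR chemokines, Cxcl5 and Ppbp were tested, and Cxcl15 is not listed. Cxcl5, a further CXCR2 ligand, had 11.7 and 10.4 CPM after AmTARS at 1 h, 9.57 and 10.3 CPM after AmTARS at 3 h, 10.6 and 10.8 CPM after Pam3CSK4 at 1 h, 23.4 and 29.6 CPM after Pam3CSK4 at 3 h, and 9.45 and 9.24 CPM in Control. It stood clear of the other groups after Pam3CSK4 at 3 h alone, where it rose by 1.40 (SE 0.09, limma adjusted p = 3.31e-10), or by 1.24 without replicate 3. No other of its changes against Control was called, although the 0.21 after AmTARS at 1 h was called in the fits without replicate 2 or replicate 3 of Pam3CSK4 at 3 h (adjusted p = 0.0377 and 0.039). Ppbp was called in no group before the length and GC correction, at 26.0 to 33.7 CPM. With the correction 1 of these 2 genes was called lower after AmTARS at 3 h and after Pam3CSK4 at 1 h and 3 h. This was Ppbp, because Cxcl5 was then called only after Pam3CSK4 at 3 h, as higher (1.24). Of 9 CXC chemokines without the motif 5 were tested. After AmTARS 4 rose at 1 h and 3 at 3 h. After Pam3CSK4 4 rose at 1 h and 3 at 3 h, and none was lower with either ligand. The shares of all genes called higher were 18.9% and 18.8% after AmTARS, and 23.9% and 24.7% after Pam3CSK4. Cxcl10, which attracts T cells through CXCR3, rose by 0.43 and 1.02 after AmTARS at 1 h and 3 h, and by 0.97 and 2.22 after Pam3CSK4. Pf4, the neighbour of Cxcl3, rose by 0.42 to 0.55 in all 4 groups. Cxcl16, the ligand of CXCR6, rose by 0.17 to 0.63, and Cxcl14 rose at 1 h with each ligand, by 0.26 after AmTARS and 0.25 after Pam3CSK4. After the length and GC correction, 2 rose at 1 h and 3 at 3 h with each ligand. The calls lost were those of Cxcl14, of Cxcl10 after AmTARS at 1 h (0.24, adjusted p = 0.218) and of Pf4 after Pam3CSK4 at 1 h (0.10, adjusted p = 0.0953).

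Of 6 receptors and decoy receptors 3 were tested, and 1 rose in each treated group. This was Ccrl2, an atypical receptor that presents chemerin, with changes of 0.37 and 0.36 after AmTARS and 0.64 and 1.23 after Pam3CSK4. Cxcr2, the receptor of the members, was at 9.06 to 11.3 CPM in all libraries and called in no group. Of 12 other genes of neutrophil recruitment 10 were tested. After AmTARS 6 rose at 1 h, and 7 rose and 1 fell at 3 h, and after Pam3CSK4 7 rose at each time. Among all genes 18.9% and 18.8% rose after AmTARS at 1 h and 3 h, and 23.9% and 24.7% after Pam3CSK4. The shares that fell were 19.8% and 17.9% after AmTARS, and 24.8% and 24.2% after Pam3CSK4. Il1b, an inflammatory cytokine, rose by 0.93 and 0.94 after AmTARS at 1 h and 3 h, and by 1.33 and 3.45 after Pam3CSK4. Tnf, another early cytokine, rose by 1.48 and 1.02 after AmTARS and by 2.75 and 3.07 after Pam3CSK4. Il1a rose by 0.41 after AmTARS at 3 h and by 0.44 and 1.68 after Pam3CSK4, with 0.01 after AmTARS at 1 h. Il6, a further cytokine, rose by 2.25 after Pam3CSK4 at 3 h. Its log2 fold change was 0.20 after AmTARS at 1 h, 0.41 after AmTARS at 3 h (adjusted p = 0.065) and 0.35 after Pam3CSK4 at 1 h (adjusted p = 0.0983), not called, and in the last 2 groups the libraries did not overlap Control. In the fits without replicate 2 or replicate 3 of Pam3CSK4 at 3 h, the 0.41 after AmTARS at 3 h was called (adjusted p = 0.0292 and 0.0304). Without replicate 3 the Pam3CSK4 3 h changes were 3.11 in Il1b, 2.92 in Tnf and 1.94 in Il6. With the length and GC correction 3 of the 10 rose after AmTARS at 1 h, 5 rose and 1 fell at 3 h, and 6 and 7 rose after Pam3CSK4 at 1 h and 3 h. The median over the 10 was 0.32 and 0.41 after AmTARS and 0.43 and 0.73 after Pam3CSK4, where the medians over all genes tested lay between -0.0068 and 0.0011.

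Among 20 transcription regulators linked to these promoters, 11 rose and 2 fell after AmTARS at 1 h, 13 rose and 2 fell at 3 h, 12 rose and 3 fell after Pam3CSK4 at 1 h, and 15 rose and 1 fell at 3 h. In the same order, 18.9%, 18.8%, 23.9% and 24.7% of all genes rose, and 19.8%, 17.9%, 24.8% and 24.2% fell. The median log2 fold change of the 20 regulators was 0.27, 0.32, 0.33 and 0.89 in that order. After the correction 10 rose and 2 fell after AmTARS at 1 h, 13 and 2 at 3 h, 10 and 3 after Pam3CSK4 at 1 h, and 17 and 1 at 3 h. Nfkbiz rose by 0.78 and 0.55 after AmTARS, and by 1.44 and 2.12 after Pam3CSK4. Nfkbia, the feedback inhibitor IkB-alpha, rose by 0.84 and 0.61 after AmTARS and by 1.28 and 1.72 after Pam3CSK4. Both had large rises at 1 h. Nfkb2, a subunit of the non-canonical pathway, rose by 0.61 after AmTARS at 3 h and by 1.57 after Pam3CSK4 at 3 h, with 0.13 after AmTARS and 0.10 after Pam3CSK4 at 1 h, not called. In the fits without either library of Pam3CSK4 at 3 h the 0.13 was called (adjusted p = 0.0296 and 0.03). Nfkbie, a further inhibitor of NF-kB, rose by 0.27 and 0.79 after AmTARS and by 0.29 and 1.95 after Pam3CSK4.

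Of 19 genes of TLR2 signalling, 2 rose and 9 fell after AmTARS at 1 h, 6 rose and 2 fell at 3 h, 3 rose and 11 fell after Pam3CSK4 at 1 h, and 6 rose and 1 fell at 3 h. Over all genes 18.9% rose and 19.8% fell after AmTARS at 1 h, 18.8% and 17.9% after AmTARS at 3 h, 23.9% and 24.8% after Pam3CSK4 at 1 h, and 24.7% and 24.2% after Pam3CSK4 at 3 h. Most of those falls were not called with the length and GC correction, when 2 rose and 1 fell after AmTARS at 1 h, 5 and 1 at 3 h, 2 and 4 after Pam3CSK4 at 1 h, and 10 and 2 at 3 h. Tlr2 itself rose by 0.17 and 0.56 after AmTARS and by 0.24 and 1.74 after Pam3CSK4. Cd14, a co-receptor, rose by 0.45 and 0.75 after AmTARS and by 0.54 and 1.58 after Pam3CSK4. Tlr1, the partner of TLR2, fell at 1 h with each ligand, by 0.24 after AmTARS and 0.30 after Pam3CSK4, and rose at 3 h by 0.19 after AmTARS and 0.90 after Pam3CSK4. Irak3, which restrains MyD88 signalling, fell at 1 h by 0.21 after AmTARS and 0.25 after Pam3CSK4, and rose at 3 h by 0.49 after AmTARS and 1.31 after Pam3CSK4. Its fall after AmTARS was not called with the correction (adjusted p = 0.0657).

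AU-rich elements were counted because proteins that bind them set the stability of such mRNAs. Windows of 30 bases from each 3' untranslated region show the densest part, with each pentamer ATTTA in capitals.
Cxcl1: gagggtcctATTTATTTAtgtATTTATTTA
Cxcl2: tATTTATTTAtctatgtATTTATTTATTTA
Cxcl3: caagatggcatcttATTTAatgtttATTTA

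The windows hold 4 pentamers in Cxcl1, 5 in Cxcl2 and 2 in Cxcl3, overlapping ones counted separately. Over the whole 3' untranslated region there were 7 in Cxcl1, 11 in Cxcl2 and 5 in Cxcl3, or 11.8, 15.0 and 7.75 per kilobase. The median of 10610 genes was 1.37 per kilobase, and the members were denser than 99.6%, 99.9% and 98.3% of genes in the same order. The longer element TTATTTATT occurred 2 times in Cxcl1, 4 times in Cxcl2 and 1 time in Cxcl3, and 7.55% of 11058 genes held at least 1. Of 15 factors that destabilise or stabilise such mRNAs, 3 rose and 5 fell after AmTARS at 1 h, 6 rose and 4 fell at 3 h, 4 rose and 4 fell after Pam3CSK4 at 1 h, and 8 rose and 2 fell at 3 h. Before the length and GC correction, the rises at 1 h were near the shares over all genes, 18.9% after AmTARS and 23.9% after Pam3CSK4. The shares called lower at 1 h were 19.8% and 24.8%. At 3 h 18.8% of all genes rose and 17.9% fell after AmTARS, and 24.7% and 24.2% after Pam3CSK4. After the correction 6 rose and 1 fell after AmTARS at 1 h, and 7 and 3 at 3 h. After Pam3CSK4 8 rose and 1 fell at 1 h, and 9 and 2 at 3 h. These rises were 40% and 46.7% of the list after AmTARS and 53.3% and 60% after Pam3CSK4. Over all genes 8.15% and 10.8% then rose after AmTARS, and 11.6% and 20.7% after Pam3CSK4. Zfp36, which encodes the AU-rich-element binding protein tristetraprolin, rose by 0.53 and 0.32 after AmTARS and by 1.33 and 0.41 after Pam3CSK4. Zc3h12a, which encodes the RNase Regnase-1, rose by 0.42 and 0.48 after AmTARS and by 0.57 and 1.29 after Pam3CSK4. Dusp1, a phosphatase of the p38 kinase, rose by 0.59 and 0.82 after AmTARS and by 1.30 and 1.26 after Pam3CSK4. Zc3h12c fell by 0.40 after AmTARS at 1 h and by 0.46 after Pam3CSK4 at 1 h, and rose by 1.19 after Pam3CSK4 at 3 h. Neither fall was called with the correction (adjusted p = 0.258 and 0.199).

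**Figure D4:**
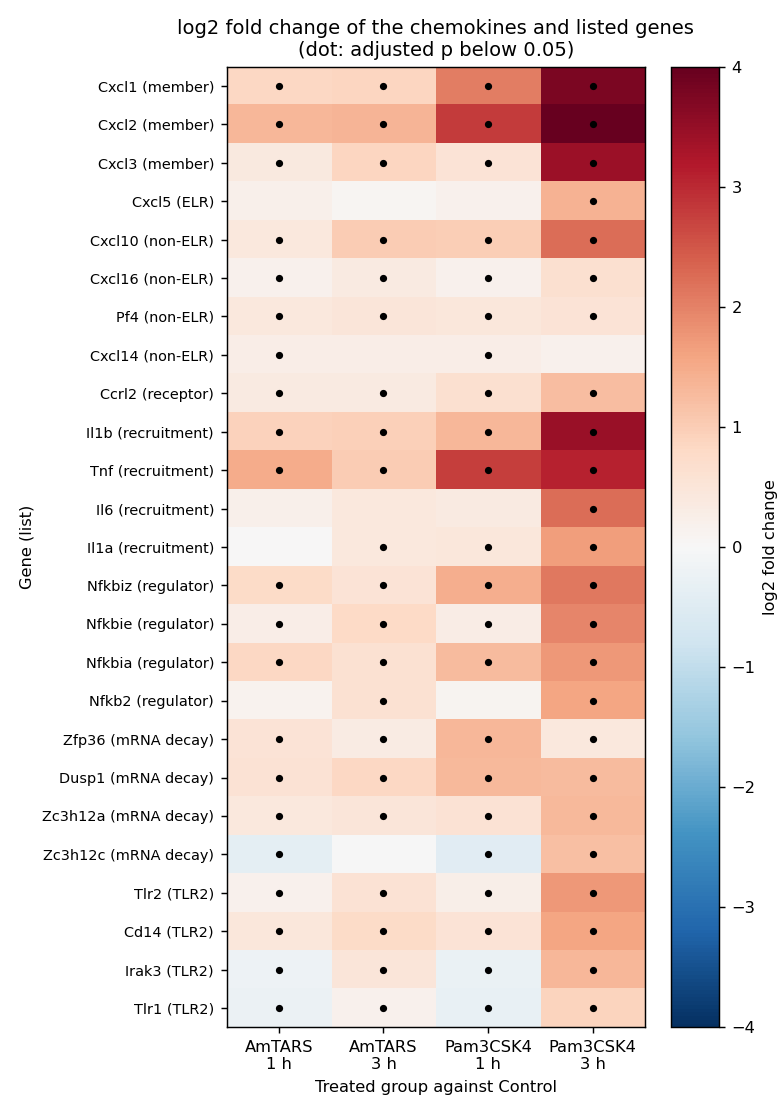
log2 fold change against Control, by colour, of the 3 members and of named genes from 7 lists, in 4 treated groups, where a dot marks a limma adjusted p below 0.05. Cxcl2 shows the highest value in the Pam3CSK4 3 h column, 4.03, and Il1b at 3.45 lies next to Cxcl3 at 3.43.

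The summed level of neutrophil markers was also higher in the treated groups. Of 11 neutrophil markers 10 were listed, Ly6g not among them, and their summed level was 2281 to 2364 CPM after AmTARS at 1 h, 2297 to 2392 after AmTARS at 3 h, 2277 to 2673 after Pam3CSK4 at 1 h and 2504 to 2903 after Pam3CSK4 at 3 h, against 1796 to 1865 CPM in Control. After AmTARS 7 rose and 1 fell at 1 h and 6 rose at 3 h. After Pam3CSK4 7 rose and 2 fell at 1 h and 7 rose at 3 h. Of all genes tested, 18.9% and 18.8% rose after AmTARS at 1 h and 3 h, and 23.9% and 24.7% after Pam3CSK4. In the same order, 19.8% and 17.9% fell after AmTARS and 24.8% and 24.2% after Pam3CSK4. Camp, an antimicrobial peptide of granules, rose by 0.60 and 0.50 after AmTARS and by 0.72 and 0.79 after Pam3CSK4. Retnlg rose by 0.50 and 0.39 after AmTARS and by 0.80 and 0.62 after Pam3CSK4. S100a8 and S100a9, calcium-binding proteins of granulocytes and also on the recruitment list, rose by 0.43 to 0.47 after AmTARS and by 0.55 to 0.69 after Pam3CSK4. These 2 genes made up much of the sum, with means of 357 and 641 CPM in Control and 577 and 1032 CPM after Pam3CSK4 at 3 h. The markers called lower were not among those named. Corrected for length and GC, Camp rose by 0.31 and 0.24 after AmTARS and by 0.35 and 0.52 after Pam3CSK4. Retnlg was no longer called after AmTARS at 1 h (0.23, adjusted p = 0.219) or 3 h (0.15, adjusted p = 0.416). S100a8 (0.16, adjusted p = 0.0714) and S100a9 (0.15, adjusted p = 0.0556) were no longer called after AmTARS at 1 h. The other calls of Retnlg, S100a8 and S100a9 were kept. Of the list 3 then rose and 1 fell after AmTARS at 1 h, 5 rose at 3 h, 6 rose and 2 fell after Pam3CSK4 at 1 h, and 6 rose at 3 h. The 6 fibroblast markers summed to 1340 to 1468 CPM after AmTARS at 1 h, 1411 to 1497 after AmTARS at 3 h, 1438 to 1564 after Pam3CSK4 at 1 h and 1354 to 1548 after Pam3CSK4 at 3 h, against 1544 to 1628 CPM in Control. The sums of both Pam3CSK4 groups overlapped Control. After AmTARS 3 of these markers fell at 1 h and 1 at 3 h. After Pam3CSK4 0 fell at 1 h and 2 at 3 h, and no marker rose in any group. With the length and GC correction none was called at 1 h with either ligand, and 1 fell at 3 h with each. The 3 listed dendritic cell markers summed to 241 to 247 CPM after AmTARS at 1 h, 238 to 239 after AmTARS at 3 h, 248 to 261 after Pam3CSK4 at 1 h and 251 to 254 after Pam3CSK4 at 3 h, against 208 to 210.4 CPM in Control. That sum followed H2-Ab1, an MHC class II gene, which rose by 0.34 to 0.44 in the 4 groups, or by 0.09 to 0.18 with the length and GC correction, not called after AmTARS at 1 h. Itgax fell by 0.19 after AmTARS at 3 h and had -0.11 after AmTARS at 1 h, -0.15 after Pam3CSK4 at 1 h and -0.13 after Pam3CSK4 at 3 h, not called. Ccr7 rose by 0.35 after Pam3CSK4 at 3 h alone among the calls, with -0.16 after AmTARS at 3 h. With the length and GC correction Ccr7 was called lower after AmTARS at 3 h (-0.26, adjusted p = 0.033) and still higher after Pam3CSK4 at 3 h (0.27). Itgax was then called in no group, with -0.12 after AmTARS at 3 h (adjusted p = 0.143). The part of these cells in the chemokine levels was not tested. The 8 listed macrophage markers summed to 50533 to 53970 CPM in treated libraries, against 49274 to 50987 CPM in Control, but single markers went both ways. After AmTARS 1 rose and 3 fell at 1 h and 1 rose and 2 fell at 3 h. After Pam3CSK4 1 rose and 4 fell at 1 h and 3 rose and 3 fell at 3 h. These counts stand against the same shares over all genes, 18.8% to 24.7% higher and 17.9% to 24.8% lower. Mertk, a receptor for the uptake of dying cells, fell by 0.49 and 0.47 after AmTARS and by 0.64 and 1.01 after Pam3CSK4. Itgam fell by 0.29 and 0.21 after AmTARS and by 0.40 and 0.17 after Pam3CSK4. Neither of its falls at 3 h was called with the length and GC correction. Adgre1 fell at 1 h by 0.16 after AmTARS and 0.29 after Pam3CSK4, and rose by 0.19 after Pam3CSK4 at 3 h. Its fall after AmTARS was not called with the correction (adjusted p = 0.0556). Cxcl2 and Cxcl3 share 61 stretches of 50 bases, 5.75% of those of Cxcl2 and 6.31% of those of Cxcl3, and how reads matching both were counted is not given in the sources used here. Cxcl1 shares none with either.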

How the data were processed

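Poly-A selected, stranded libraries were aligned with STAR 2.5.1 to mm10, and R 3.3.0 was used later, per the submitters' processing notes. Which counter, annotation and scaling were used is not given in the sources used here. As values, the authors deposited log2(CPM + 1) values for 11617 genes in 10 libraries. Back-transformed, 100% of values were whole reads within 0.1 read, and these recovered reads gave the depths. The 11407 genes averaging 1 CPM or more were fitted with 1 mean per group in limma 3.58.1 (R 4.3.3, intensity trend, 5 residual and 14.7 prior degrees of freedom). Benjamini-Hochberg adjustment ran over all genes of a contrast, with calls at adjusted p below 0.05. Fold changes are on the log2(CPM + 1) scale, which understates changes of low genes. The length and GC correction removed splines (5 degrees of freedom each) of log2 length and GC content, from GENCODE M21. The calculation was tested on simulated data. Promoters came from RefSeq (GRCm38.p6). The members and lists were chosen with earlier results of these data known. From each list up to 4 called genes with the largest absolute log2 fold change against Control were named, with the 5 genes most correlated with each member; Ppbp and Cxcr2 were named in addition after their values were seen. Marker lists are given mainly as sums.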

Additional observations from a re-analysis of the deposited data

Results flagged for a closer look

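All 3 genes were picked out because the change over time differed between the ligands in a test of the difference itself. The AmTARS change from 1 h to 3 h minus the Pam3CSK4 change was -1.68 in Cxcl1, -1.23 in Cxcl2 and -2.44 in Cxcl3 on the log2 scale, each with a limma adjusted p below 0.05 (2.63e-07, 1.02e-05 and 4.52e-09). With 2 libraries a group, no group was large enough for a search for single outlying libraries.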

How the results depend on the processing

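Of 621 combinations of 27 member results with 23 alternatives, 602 kept direction and side of the threshold, 13 lost the call and 6 turned sign. The sign changes concern Cxcl1 and Cxcl2 between 3 h and 1 h of AmTARS, neither called: Cxcl2 was -0.0017 with quantile scaling, -0.14 with the replicate block and -0.0596 with the block and the length and GC correction, and -0.0779 to 0.10 when leaving out 1 library. Cxcl1 was -0.0585 with the replicate block and -0.0036 to 0.0916 when leaving out 1 library. The call of Cxcl3 for 3 h against 1 h of AmTARS was lost with quantile scaling (0.44, adjusted p = 0.0529), without an intensity trend (0.45, 0.24), with voom on recovered reads (0.46, 0.068) and with the replicate block (0.34, 0.134), and ranged from 0.39 to 0.51 when leaving out 1 library. For AmTARS at 1 h against Control, Cxcl3 lost its call without an intensity trend (0.40, 0.0539), with the length and GC correction (0.20, 0.153) and with both block and correction (0.20, 0.095), and ranged from 0.34 to 0.46 when leaving out 1 library. For Pam3CSK4 at 1 h against Control it lost its call with block and correction (0.26, 0.0872). The cause was not tested. Same-numbered libraries correlated at -0.21 to 0.20 in their deviations. In a group of 2 libraries the deviations mirror each other, so these values cannot decide whether the numbers pair the samples. Counts of genes called moved more. The length and GC correction gave 1619 instead of 4415 for AmTARS at 1 h, 2114 instead of 4186 for AmTARS at 3 h, 2590 instead of 5556 for Pam3CSK4 at 1 h and 450 instead of 271 for 3 h against 1 h of AmTARS. With the replicate block the counts were 2017 for AmTARS at 3 h and 672 instead of 1049 for the interaction, and with block and correction 1732, 917 and 1305 for AmTARS at 1 h, AmTARS at 3 h and Pam3CSK4 at 1 h. Without an intensity trend 63 were called for 3 h against 1 h of AmTARS and 680 for the interaction. With only the groups compared the counts were 492 for 3 h against 1 h of AmTARS and 42 instead of 21 for AmTARS against Pam3CSK4 at 1 h. Without Control replicate 2, 2603 were called for AmTARS at 1 h and 2313 at 3 h. Without AmTARS 3 h replicate 1 the counts were 1997 for AmTARS at 3 h against Control, 1193 instead of 1953 for AmTARS against Pam3CSK4 at 3 h and 675 for the interaction. Leaving out 1 AmTARS library gave 89 to 158 for 3 h against 1 h of AmTARS. Without Pam3CSK4 1 h replicate 1, 2381 instead of 3597 were called for 3 h against 1 h of Pam3CSK4. Without Pam3CSK4 3 h replicate 3, 1141 were called for AmTARS against Pam3CSK4 at 3 h, and at 1 h 33 and 34 without replicate 2 and 3 of that group.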
